A study of Mus musculus with 6 samples.

Results

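Pnpla2, Mgll and Gk are 3 of the 389 genes in the table analysed here, found by their gene symbols. They encode enzymes that take stored triglyceride apart and pass its glycerol on. The study compared liver RNA of whole-body Usp28 knockout mice (KO, 3 samples), which lack a deubiquitinase, with that of wild-type mice (WT, 3 samples). Both groups ate a methionine-choline deficient (MCD) diet, which induces steatohepatitis, for 4 weeks beginning at 8 weeks of age, and no other diet was analysed here. Whether each sample is a separate animal is not stated, so each p-value measures only how far these samples spread, which may be technical in part. Sex, strain and feeding state at collection are not stated either.

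Triglyceride in a lipid droplet is cleaved stepwise. PNPLA2 (also called ATGL, adipose triglyceride lipase) removes the first fatty acid, hormone-sensitive lipase and related enzymes act on the diglyceride that is left, and MGLL (monoglyceride lipase) splits the monoglyceride into a fatty acid and glycerol. MGLL also breaks down the endocannabinoid 2-arachidonoylglycerol. GK (glycerol kinase) phosphorylates glycerol to glycerol 3-phosphate, which the liver can use to build new triglyceride or to make glucose. In hepatocytes, fatty acids set free by PNPLA2 are known to feed oxidation and to act through the nuclear receptor PPARA, and PPAR family members are known to regulate many genes of lipid breakdown.

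Levels are given as FPKM, the authors' fragment counts scaled to transcript length and library depth. The depth that counts and FPKM together imply lay between 20350000 and 24160000 reads per library. The 389 genes, called the listed genes here, are the authors' own selection for a difference between KO and WT: in the authors' deposited table no absolute log2 fold change was under 1.004 and no FDR (false discovery rate) over 0.0494. That the 3 genes differed between genotypes was therefore a condition for having a row, and their tests are not independent of it. WT replicate 3 stood apart from the other WT libraries: the listed genes took 5.45% of its reads, against 8.74% and 8.81% in WT replicates 1 and 2 and 3.73% to 3.77% in the KO libraries. It also had the highest summed level of the macrophage markers. Of 15 such markers, the 6 with a row (Mmp12, Gpnmb, Lgals3, Cd14, Itgam and Itgax) summed to 168 FPKM in WT replicate 3, 67.1 in WT replicate 1 and 30.8 in WT replicate 2, and in KO to between 20.7 and 28.9, and none was at 0. Of 11 lymphocyte and neutrophil markers only Lcn2 had a row, at 120 FPKM in WT replicate 3, 28.8 and 33.9 in WT replicates 1 and 2, and 8.02 to 12.4 in KO. Of 7 cholangiocyte markers only Cldn4 had one, at 3.25 FPKM in WT replicate 3, 0.41 and 0.16 in WT replicates 1 and 2, and 0.03 to 0.10 in KO. No marker of hepatocytes (12), adipocytes (8), stellate cells (10) or endothelial cells (7) had a row, so the liver label could not be checked by hepatocyte genes. Usp28 had no row either, which leaves the genotype labels without that check.

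Pnpla2 (ENSMUSG00000025509) lies on chromosome 7 from 141455198 to 141460743 on the plus strand, Mgll (ENSMUSG00000033174) on chromosome 6 from 88724412 to 88828360 on the plus strand, and Gk (ENSMUSG00000025059) on the X chromosome from 85701937 to 85776819 on the minus strand (GENCODE M21, GRCm38). The 250 bases before the start site of each gene (RefSeq, GRCm38.p6) are shown because the transcripts were all lower in KO and the title of the study names a PPAR. Each is written 5′ to 3′ on the strand of its gene, from chr7:141454938-141455187 for Pnpla2, chr6:88724162-88724411 for Mgll and chrX:85776820-85777069 for Gk. Capitals mark matches to the motifs named after the sequences.
Pnpla2: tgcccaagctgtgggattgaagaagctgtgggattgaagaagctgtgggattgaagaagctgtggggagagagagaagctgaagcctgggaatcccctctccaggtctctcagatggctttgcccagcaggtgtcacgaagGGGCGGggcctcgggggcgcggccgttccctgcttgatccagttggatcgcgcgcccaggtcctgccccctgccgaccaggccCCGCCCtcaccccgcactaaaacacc
Mgll: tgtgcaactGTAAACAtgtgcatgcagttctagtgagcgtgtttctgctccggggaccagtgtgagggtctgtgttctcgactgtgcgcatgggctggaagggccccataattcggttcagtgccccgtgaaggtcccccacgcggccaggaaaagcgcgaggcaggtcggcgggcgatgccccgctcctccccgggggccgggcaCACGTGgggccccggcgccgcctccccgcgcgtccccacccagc
Gk: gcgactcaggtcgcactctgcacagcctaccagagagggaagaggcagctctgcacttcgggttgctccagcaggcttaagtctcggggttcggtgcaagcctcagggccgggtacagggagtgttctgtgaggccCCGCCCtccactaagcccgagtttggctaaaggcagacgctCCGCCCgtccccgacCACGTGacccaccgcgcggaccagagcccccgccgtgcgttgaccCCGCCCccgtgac

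These windows were searched on both strands for a PPAR response element in its direct-repeat form (2 AGGTCA boxes 1 base apart), the AGGTCA box alone, an E-box (CACGTG), a FOXO site (TGTTTAC), the core of a cAMP response element (TGACG), a GC box (GGGCGG) and a TATA box (TATAAA). The GC box was found 2 times before Pnpla2 and 3 times before Gk, and it is present in 32.7% of the 32851 windows of the same length in the RefSeq table. An E-box, a site of factors such as USF, was found 1 time before Mgll and 1 time before Gk, and it is present in 6.02% of all windows. A FOXO site was found before Mgll and is present in 3.17% of all windows. No match overlapped another. Neither form of the PPAR motif was found in the 3 windows, nor were the cAMP and TATA motifs. The direct repeat is rare at this length (0.0335% of all windows, against 14.0% for its single box), and its letters being missing here says nothing about binding elsewhere. The 3 windows are rich in G and C, with 63.2% for Pnpla2, 68.0% for Mgll and 67.2% for Gk, where the median of all windows is 52.4%.

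All 3 transcripts fell in KO liver. Pnpla2 was lower by 3.53-fold, Gk by 2.64-fold and Mgll by 2.25-fold in edgeR's fit of the counts. All 3 passed edgeR's quasi-likelihood test at a Benjamini-Hochberg threshold of 0.05. So did 99.7% of the listed genes, 59.9% as lower and 39.8% as higher, and the 3 calls are no more than the selection of the table gives. In bulk liver RNA, less of a transcript per cell and fewer cells that carry it cannot be told apart.

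Pnpla2, the lipase of the first step, stood at 159, 203 and 96.8 FPKM in WT replicates 1, 2 and 3, and at 36.8, 47.5 and 41.8 FPKM in KO replicates 1, 2 and 3. Every WT library was above every KO library, as for Mgll and Gk and, in either direction, for 93.3% of the listed genes. The lowest WT value was 2.04 times the highest KO value. The log2 fold change was -1.82 ± 0.34 (SE, n = 3 per group, edgeR adjusted p = 0.00356). Of the 3 genes Pnpla2 had the highest WT level per transcript length, 153 ± 53.3 FPKM (SD, n = 3), and it fell to 42.0 ± 5.39 (SD, n = 3). Without WT replicate 3 the change was -2.05 with an SE of 0.20 (edgeR, adjusted p = 0.000158). It was -1.57 with an SE of 0.35 without WT replicate 2 (edgeR, adjusted p = 0.00981). With a KO library left out, the adjusted p was 0.0209 to 0.0227 (edgeR).

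Mgll, the lipase of the last step, stood at 108 and 111 FPKM in WT replicates 1 and 2 and at 41.1 FPKM in WT replicate 3. In KO replicates 1, 2 and 3 it stood at 37.0, 40.0 and 38.2 FPKM. The groups did not overlap, but WT replicate 3 was only 2.73% above the highest KO library, a gap smaller than the 3.91% coefficient of variation among the KO libraries. Among the 214 listed genes whose KO values were all below their WT values (55.0% of the listed genes), 3 had a narrower gap by the ratio of the lowest WT to the highest KO value. The counting error at these counts is 1.78% for KO replicate 2 and 1.84% for WT replicate 3 (1 SD of a Poisson count, which covers counting error only).

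The Mgll difference therefore lay in WT replicates 1 and 2. Its log2 fold change was -1.17 ± 0.39 (SE, n = 3 per group, edgeR adjusted p = 0.0175), and -1.51 ± 0.15 without WT replicate 3 (SE, edgeR adjusted p = 0.000179). The call was lost when any other library was left out. The log2 fold change was then -0.98 without WT replicate 1 (edgeR adjusted p = 0.0517) and -0.95 without WT replicate 2 (edgeR adjusted p = 0.0610). Among the KO libraries it was -1.15 without KO replicate 1 (edgeR adjusted p = 0.0555), -1.20 without KO replicate 2 (edgeR adjusted p = 0.0597) and -1.16 without KO replicate 3 (edgeR adjusted p = 0.0539). Mean levels were 86.7 ± 39.6 FPKM for WT and 38.4 ± 1.50 for KO (SD, n = 3 per group).

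Gk, which phosphorylates the glycerol that lipolysis releases, stood at 83.8, 53.3 and 35.2 FPKM in WT replicates 1, 2 and 3. In KO replicates 1, 2 and 3 it stood at 21.9, 23.0 and 20.4 FPKM. The WT libraries were spread over a 2.38-fold range and the KO libraries over a 1.13-fold range, and WT replicate 3 was 1.53 times the highest KO library. The log2 fold change was -1.40 ± 0.36 (SE, n = 3 per group, edgeR adjusted p = 0.00835). This became -1.02 without WT replicate 1 (edgeR adjusted p = 0.0279) and -1.66 without WT replicate 3 (edgeR adjusted p = 0.000409). Mean levels were 57.5 ± 24.6 FPKM for WT and 21.8 ± 1.35 for KO (SD, n = 3 per group).

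**Figure D1:**
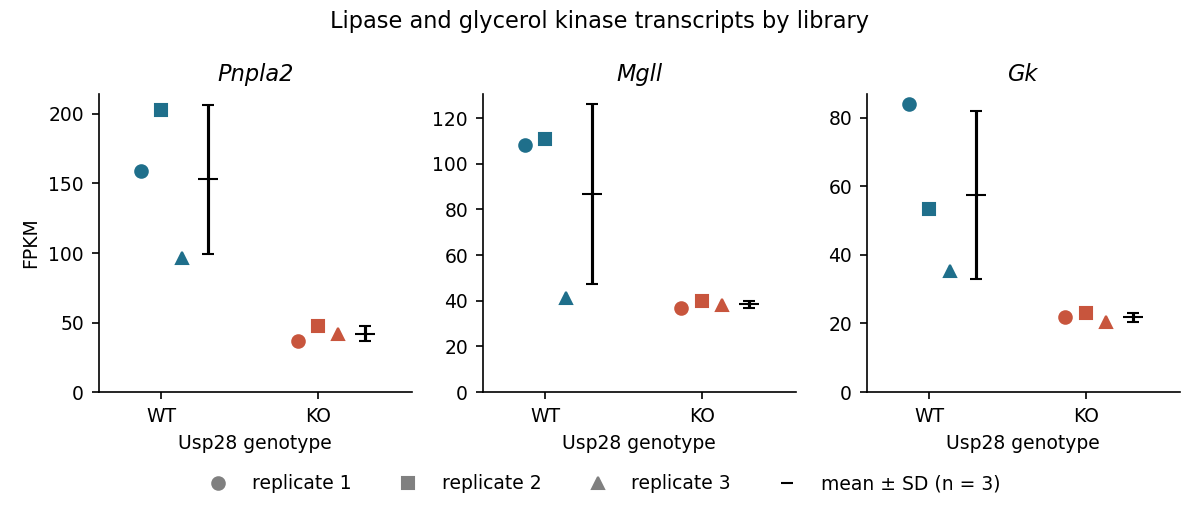
FPKM of Pnpla2, Mgll and Gk (vertical axes, linear from 0) in each WT and KO library, with the group mean ± SD (n = 3) beside the points and the replicate number given by the symbol. WT replicate 3 is the lowest WT library in every panel, and for Mgll it lies at 41.1 FPKM against 37.0 to 40.0 in KO.

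The WT libraries varied more than the KO libraries for all 3 genes. The SD of log2 FPKM was 0.54 in WT and 0.19 in KO for Pnpla2, 0.82 and 0.06 for Mgll, and 0.63 and 0.09 for Gk. This holds for 78.1% of the 384 listed genes with an FPKM above 0 in every library, whose median SD was 0.59 in WT and 0.26 in KO. WT replicate 3 was the lowest WT library for all 3 genes, as it was for 121 of the 233 listed genes with a lower mean in KO (51.9%). WT replicate 3, the lowest WT library for Pnpla2, Mgll and Gk, was the highest of all 6 libraries in the summed macrophage markers given above. Those 6 markers have a row only because they passed the selection for a genotype difference. Their sum is thus no measure of macrophage number, and any part of macrophages in the result was not tested.

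The authors tested more genes than they listed: their FDR and p-values imply about 16198. With adjustment over that number, which ranks each gene without a row as unchanged, none of the 3 passed in edgeR: the adjusted p was 0.148 for Pnpla2, 0.348 for Gk and 0.728 for Mgll, and 1.29% of the listed genes were called lower. With DESeq2 and the same adjustment, Pnpla2 (adjusted p = 0.000146) and Gk (adjusted p = 0.0260) passed and Mgll (adjusted p = 0.244) did not, while 39.3% of the listed genes were called in either direction and 26.5% as lower. Without WT replicate 3, edgeR's p-values adjusted over 16198 genes were 0.00658 for Pnpla2, 0.0170 for Gk and 0.00744 for Mgll, and 32.1% of the listed genes were called lower. This setting and the DESeq2 one were chosen after the values were seen, and no other library was left out with this adjustment. WT replicate 3 was the lowest WT library for all 3 genes, so leaving it out was bound to enlarge their fall. These 3 calls are therefore no independent support. In the authors' deposited table the FDR was 2.48e-06 for Pnpla2, 0.000817 for Gk and 0.0291 for Mgll.

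Pnpla2 was the highest and Gk the lowest in FPKM in each WT library. In KO, Gk was again the lowest in each library, but Pnpla2 and Mgll came close to each other, at 42.0 ± 5.39 and 38.4 ± 1.50 FPKM (SD, n = 3 each), and in KO replicate 1 Mgll was marginally the higher at 37.0 against 36.8 FPKM. Among the 389 listed genes, Pnpla2 ranked 34 by mean FPKM in WT and 72 in KO, Mgll 51 and 75, and Gk 77 and 108.

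Ratios within a library do not depend on how libraries are scaled to each other. There was 0.681, 0.546 and 0.424 times as much Mgll as Pnpla2 by FPKM in WT replicates 1, 2 and 3, and 1.01, 0.841 and 0.914 times as much in KO replicates 1, 2 and 3. The ratio was thus higher in each KO library than in each WT library. Its mean log2 value was -0.89 ± 0.34 for WT and -0.12 ± 0.13 for KO (SD, n = 3 per group), a difference of 0.76 (two-sided exact permutation test, p = 0.10, the smallest that 3 against 3 libraries allow, and 0.30 adjusted over the 3 pairs). This difference therefore could not pass at this sample size.

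The other ratios overlapped between the genotypes. Gk to Pnpla2 was 0.527, 0.263 and 0.364 in WT replicates 1, 2 and 3. In KO replicates 1, 2 and 3 it was 0.596, 0.485 and 0.487, a difference in mean log2 ratio of 0.49 (two-sided exact permutation test, p = 0.30, adjusted p = 0.40). Gk to Mgll was 0.774, 0.481 and 0.858 in WT and 0.592, 0.576 and 0.532 in KO, in the same order of replicates. Its difference in mean log2 ratio was -0.27 (two-sided exact permutation test, p = 0.40, adjusted p = 0.40). These tests do not show that the pairs changed alike.

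**Figure D2:**
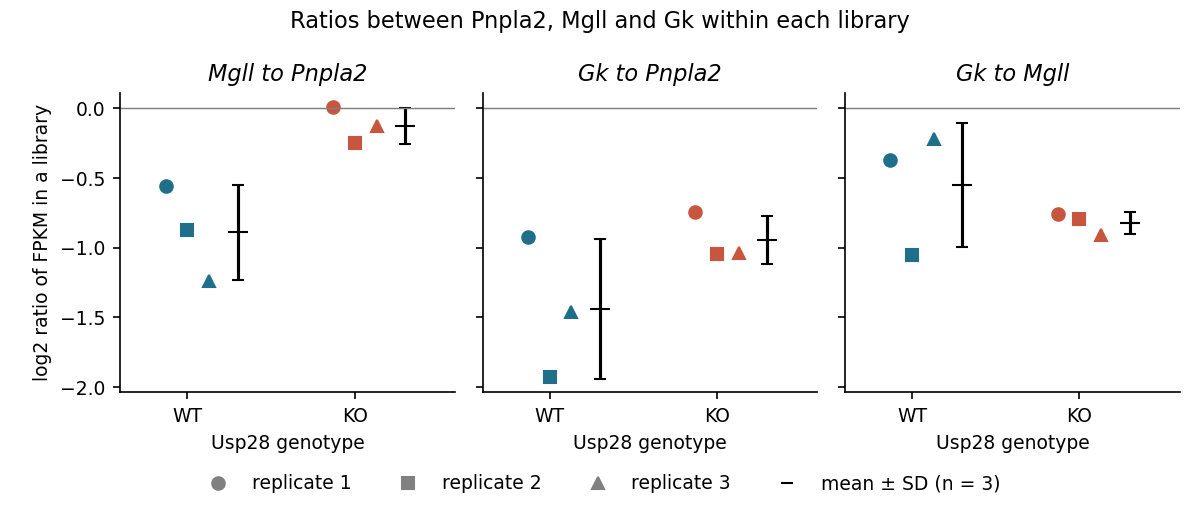
Log2 ratio of FPKM for each pair of the 3 genes (vertical axis) in each WT and KO library, with the mean ± SD (n = 3); 0 means equal FPKM. The Mgll to Pnpla2 ratio lies at -1.24 to -0.55 in WT and at -0.25 to 0.01 in KO, while the groups overlap in the other panels.

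The deposited counts and FPKM together give the transcript length that the FPKM of each library was divided by. It was 4275 to 4286 bases for Gk, close to the 4229 to 4340 bases of its 4 annotated protein-coding transcripts. For Mgll it was 3546 to 3607 bases, which lies between its short coding transcripts (1034 to 1312 bases) and its long ones (3676 to 3991 bases). For Pnpla2 it was 1912 to 1981 bases in the WT libraries and 1957 to 2028 in the KO libraries, so the groups overlapped. These lengths carry the error of the recovered depth, and no value for a single transcript was used here. Whether strand was used is not stated. On the opposite strand, Mgll overlaps the antisense gene Gm26588 at its start and Gm43937, and Gk overlaps the antisense gene Gm14764 and the pseudogene Gm14767. Reads of these pairs cannot be told apart if strand was not recorded. Mgll also overlaps Gm44005, Gm43999 and Gm44001 on its own strand, where strand cannot tell reads apart. Pnpla2 overlaps no other annotated gene.

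The other genes of the pathway were read from 5 lists with 102 entries, of which 19 genes had a row. edgeR called all 19 lower in KO, where it called 59.9% of the listed genes lower. The lists were chosen with earlier results of these data known, and the 19 include Pnpla2, Mgll and Gk. This share is therefore a description and no test of the pathway. The median log2 fold change of the 19 was -1.40, against -1.10 over all listed genes, a median that pools lower and higher genes. Gk, also at -1.40, ranked 120 by size of fall among the 233 listed genes lower in KO. The 19 therefore did not stand out from the other lower genes by this median. With TMM factors, which take most listed genes to be unchanged, 7 of the 19 were called lower, against 24.2% of the listed genes called lower and 40.1% higher. Pnpla2 stayed among the 7, while Mgll (-0.62, edgeR adjusted p = 0.199) and Gk (-0.83, edgeR adjusted p = 0.0740) did not.

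In the list of triglyceride lipases and their cofactors, 4 of 24 genes had a row and all 4 fell: Pnpla2, Mgll, Hilpda and Plin2. A row required a difference, and 59.9% of the listed genes were called lower. HILPDA is a droplet protein that inhibits PNPLA2, and PLIN2 coats the droplet and limits access of lipases to it. Hilpda stood at 5.90, 7.46 and 13.2 FPKM in WT replicates 1, 2 and 3 and at 2.44, 4.33 and 3.73 in KO replicates 1, 2 and 3, a log2 change of -1.34 with an SE of 0.40 (edgeR, adjusted p = 0.0125). The Hilpda call was lost without KO replicate 1 (-1.13, edgeR adjusted p = 0.0536), with TMM factors (-0.73, edgeR adjusted p = 0.0856) and with DESeq2's own size factors (-0.73, DESeq2 adjusted p = 0.170). Its highest value was in WT replicate 3, where Pnpla2, Mgll and Gk had their lowest WT value. Plin2 stood at 1052, 764 and 1021 FPKM in WT and at 204, 315 and 335 in KO, in the same order, so WT replicate 3 was level with WT replicate 1. The genes for hormone-sensitive lipase (Lipe), the PNPLA2 activator (Abhd5) and the PNPLA2 inhibitor G0S2 (G0s2) had no row and were not analysed here.

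In the list of glycerol uptake and use, Gk was the 1 gene of 15 with a row. The glycerol channel gene Aqp9 and the glycerol 3-phosphate dehydrogenase genes Gpd1 and Gpd2 had none. In the list of triglyceride assembly, 2 of 18 genes had a row and both fell, beside 59.9% of the listed genes called lower. Gpat4, whose product adds the first fatty acid to glycerol 3-phosphate, stood at 62.8, 62.1 and 40.7 FPKM in WT replicates 1, 2 and 3 and at 22.0, 26.8 and 29.4 in KO replicates 1, 2 and 3 (log2 change -1.07, SE 0.30, edgeR adjusted p = 0.0111). Lpin2, whose product makes diglyceride from phosphatidate, stood at 72.2 to 114 FPKM in WT and 35.7 to 51.6 in KO (edgeR adjusted p = 0.0150), and the call was lost without WT replicate 1 (-0.81, edgeR adjusted p = 0.0591), KO replicate 1 (-0.93, edgeR adjusted p = 0.0564) or KO replicate 3 (-0.92, edgeR adjusted p = 0.0688). Neither gene passed with TMM factors, where Gpat4 stood at -0.50 (edgeR adjusted p = 0.185) and Lpin2 at -0.43 (edgeR adjusted p = 0.225), or with DESeq2's own size factors.

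In the list of fasting and lipolysis regulators, 2 of 17 genes had a row and both fell, beside 59.9% of the listed genes called lower. Ppara stood at 24.9, 20.6 and 18.4 FPKM in WT replicates 1, 2 and 3 and at 8.79, 11.2 and 9.88 in KO replicates 1, 2 and 3 (log2 change -1.07, SE 0.29, edgeR adjusted p = 0.00931). Its WT libraries lay closer together than those of Pnpla2, Mgll and Gk, with a coefficient of variation of 15.5% against 34.8%, 45.6% and 42.8%. Ppargc1a, a coactivator of PPARA, changed by -1.52 (log2, SE 0.40, edgeR adjusted p = 0.00922), and its WT replicate 3 (2.95 FPKM) lay below KO replicate 2 (3.03 FPKM). Both calls were lost with TMM factors, where Ppara stood at -0.50 (edgeR adjusted p = 0.140) and Ppargc1a at -0.98 (edgeR adjusted p = 0.0536), and with DESeq2's own size factors. Pparg, the PPAR of the study's title, had no row.

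In the list of fatty acid activation and oxidation, 10 of 28 genes had a row and all 10 fell, with a median log2 fold change of -1.67. Of all listed genes 59.9% were called lower, and their median was -1.10, which pools lower and higher genes. Among the largest changes of the 10 were those of Ehhadh (-2.90), Vnn1 (-2.17) and Cyp4a14 (-1.91). Cyp4a14, a fatty acid omega-hydroxylase gene, had the pattern of Mgll: it stood at 4928 and 4883 FPKM in WT replicates 1 and 2, at 1010 in WT replicate 3, and at 949 to 972 in KO. Its call was lost without KO replicate 2 (-1.91, edgeR adjusted p = 0.0574) and with TMM factors (-1.37, edgeR adjusted p = 0.0712). Relative to the mean log2 FPKM of the KO libraries, WT replicate 3 was at 0.08 for Cyp4a14, 0.10 for Mgll, 0.70 for Gk, 1.21 for Pnpla2, 1.88 for Plin2 and 1.96 for Hilpda. WT replicates 1 and 2 were at 1.50 and 1.53 for Mgll, 1.95 and 1.29 for Gk, and 1.93 and 2.28 for Pnpla2. The 3 genes thus lay at different places between the KO level and the other WT libraries in the same sample.

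**Figure D3:**
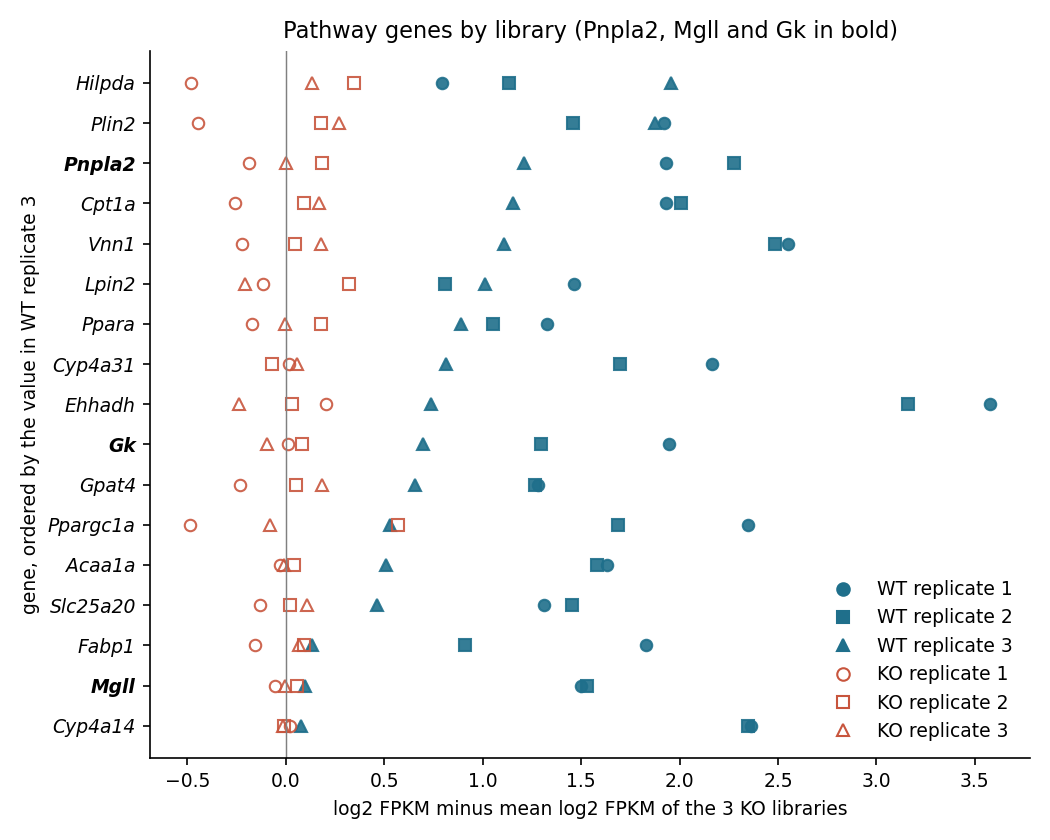
Log2 FPKM of 17 of the 19 pathway genes in each library, relative to the mean of the 3 KO libraries (horizontal axis); filled symbols are WT, open symbols KO, and genes are ordered by WT replicate 3. WT replicate 3 runs from 0.08 for Cyp4a14 and 0.10 for Mgll, next to the KO points, to 1.96 for Hilpda, with Gk at 0.70 and Pnpla2 at 1.21.

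For each of the 3 genes, the most similar listed genes were found by the root mean square difference of log2 FPKM over the 6 libraries, each gene centred on its own mean. They came from 262 other genes with a mean of at least 1 FPKM in both groups. The 3 nearest to Pnpla2 were Cpt1a, which encodes the carnitine acyltransferase that admits fatty acids to mitochondria (difference 0.130), the fatty acid elongase gene Elovl5 (0.163) and the mitochondrial glutamate carrier gene Slc25a22 (0.163). Cpt1a stood at 275, 290 and 161 FPKM in WT replicates 1, 2 and 3 and at 60.2, 76.9 and 81.2 in KO replicates 1, 2 and 3.

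The nearest to Mgll was Acad11, an acyl-CoA dehydrogenase gene (0.0482), and Hsd17b11, which encodes a dehydrogenase of lipid droplets, was also among its 3 nearest (0.0944). Acad11 stood at 178, 167 and 67.4 FPKM in WT replicates 1, 2 and 3 and at 59.9, 66.4 and 62.7 in KO replicates 1, 2 and 3, so it too had WT replicate 3 next to the KO libraries. For Hsd17b11, WT replicate 3 (69.64 FPKM) was level with KO replicate 1 (69.75 FPKM) and below KO replicates 2 and 3 (76.2 and 71.6 FPKM). The 3 nearest to Gk were the elongase gene Elovl2 (0.0589), the fatty aldehyde dehydrogenase gene Aldh3a2 (0.105) and the lactate dehydrogenase gene Ldha (0.125). Elovl2 stood at 269, 186 and 108 FPKM in WT replicates 1, 2 and 3, with the same libraries highest and lowest as for Gk, and at 72.6, 78.3 and 66.5 in KO replicates 1, 2 and 3. No gene was nearest to more than 1 of the 3, and these differences are a description over 6 libraries in 2 genotypes.

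**Figure D4:**
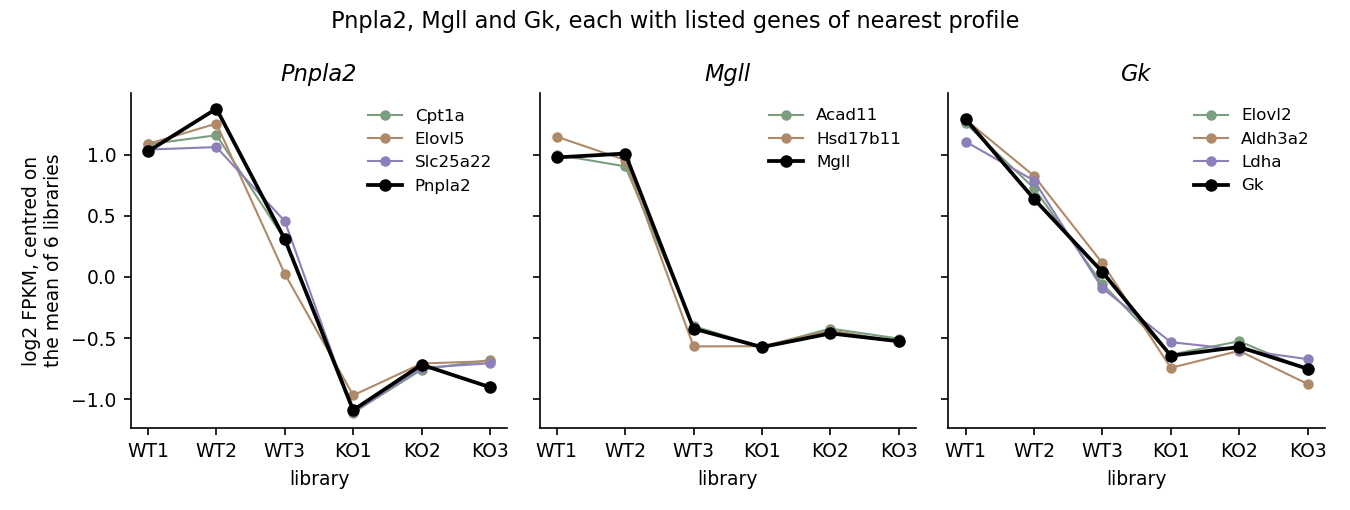
Log2 FPKM centred on the mean of the 6 libraries (vertical axis) for Pnpla2, Mgll and Gk (black) and listed genes nearest to each (3 for Pnpla2 and Gk, 2 for Mgll); lines only join the values of a gene. WT replicate 3 sits with KO for Mgll and the genes plotted with it, and between the other WT libraries and KO for Pnpla2, Gk and theirs.

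The fold changes of the 3 genes were also set side by side over methods and libraries. DESeq2 with the recovered depth gave -1.82 for Pnpla2, -1.17 for Mgll and -1.40 for Gk, and limma on log2(FPKM + 1) gave -1.78, -1.02 and -1.28 on that scale. With TMM factors the median listed gene moved by 0.58 on the log2 scale and Pnpla2 stood at -1.27 (edgeR adjusted p = 0.0128). With DESeq2's own size factors the median moved by 0.66 and Pnpla2 stood at -1.18 (DESeq2 adjusted p = 0.00352), Mgll at -0.50 (DESeq2 adjusted p = 0.254) and Gk at -0.70 (DESeq2 adjusted p = 0.0754); 21.3% of the listed genes were called lower and 40.1% higher. Pnpla2 thus passed under each of these settings over the listed genes, whereas Mgll and Gk did not pass under either scaling that centres the listed genes.

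**Figure D5:**
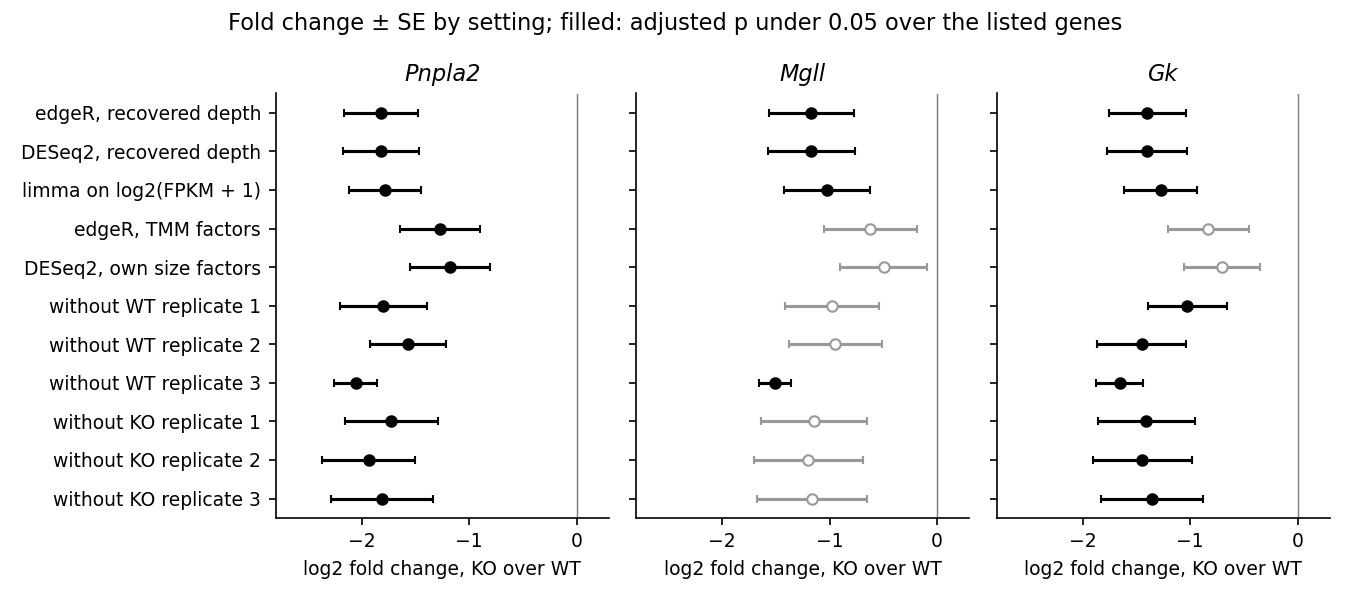
Log2 fold change of KO over WT ± SE (horizontal axis) for Pnpla2, Mgll and Gk under 5 fits with all libraries and 6 edgeR fits that leave out a library; filled points have an adjusted p under 0.05 over the listed genes. All points are below 0; Pnpla2 is filled throughout, Gk is open under 2 scalings, and Mgll is open under those 2 and under 5 of the 6 fits with a library left out.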

How the data were processed

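Liver RNA of 3 Usp28 KO and 3 WT samples was analysed. Extraction used Trizol and library preparation a NEBNext Ultra kit, per the labels' protocols. The submitters' processing notes name fastp 0.18.0, HISAT2, StringTie 1.3.1 and RSEM. What each did, the build, gene models, strand setting and the authors' test were not given in the sources used here. For each gene the deposited table gives raw read counts and FPKM in every sample, and the authors' log2 fold change, p-value and FDR, per the file headers. It holds 389 genes selected on this comparison, and 388 IDs matched GENCODE M21.

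Library depth was the median, over 38 to 51 single-transcript genes with 50 or more counts and 1 or more FPKM, of the count per FPKM and length. WT replicates 1, 2 and 3 had 20370000, 24160000 and 20350000 reads, and KO replicates 1, 2 and 3 had 20860000, 22130000 and 21820000. Counts of Pnpla2, Mgll and Gk ranged from 1500 to 9617 per library, a counting error of 1.02% to 2.58%. No replicates matched within counting noise (chi-square over its degrees of freedom was 45.1 to 1005).

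The main test was edgeR 4.0.16 (R 4.3.3, quasi-likelihood) on unfiltered counts with that depth as library size and no scaling factors, Benjamini-Hochberg adjusted over the 389 genes. Each SE is the fold change (log2) over the root of its F statistic. The planned count test was kept; because the table is selected, TMM was an alternative, with DESeq2 1.42.0, limma 3.58.1 on log2(FPKM + 1) and log2(FPKM + 0.1), a filter of 10 counts in 3 libraries, a replicate block, adjustment over 16198 genes (the range implied by 19 leading genes is 16194 to 16202) and leaving out each library. Ratios of FPKM used an exact permutation test. The fits were also run on simulated counts with the same spread in both groups. The WT libraries here varied more than the KO libraries, so that run does not show how the fits behave on these data.

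The 3 genes, the lists and the rules were chosen with earlier results of these data known. By the naming rule, values are given for the 3 genes, for up to 4 genes of each list with the largest change, and for the 3 nearest profiles of each gene; 2 genes that it names are not reported here. Promoter windows were taken from RefSeq, GRCm38.p6, where all 3 symbols matched. Mgll has 2 entries there, and the one at the annotated gene start was used.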

Additional observations from a re-analysis of the deposited data

How the results depend on the processing

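Pnpla2, Mgll and Gk were lower in KO under every alternative run. They were selected for a genotype difference, and each WT value lay above each KO value. Leaving out a library therefore could not reverse the direction. Leaving out a library gave log2 fold changes of -2.05 to -1.57 for Pnpla2, -1.66 to -1.02 for Gk and -1.51 to -0.95 for Mgll, which kept its call only without WT replicate 3. With TMM factors Mgll (-0.62) and Gk (-0.83) lost their calls, as they did with DESeq2's own size factors (-0.50 and -0.70). Adjusting over 16198 genes, with fold changes unchanged, took the edgeR call from Pnpla2 (-1.82), Mgll (-1.17) and Gk (-1.40), and the DESeq2 call from Mgll (-1.17).

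Of the 389 listed genes 388 passed (155 higher and 233 lower, 39.9% higher). The count was 250 with TMM factors (156 higher and 94 lower, 62.4% higher), 239 with DESeq2's own size factors (156 higher and 83 lower, 65.3% higher), 5 in edgeR and 153 in DESeq2 after adjustment over 16198 genes, and 181 in edgeR when WT replicate 3 was also left out. Leaving out a library gave 279 to 372. Of the 19 pathway genes, 7 passed with TMM factors, 8 with DESeq2's own size factors and 14 to 19 with a library left out. After adjustment over 16198 genes 0 passed in edgeR, where all 19 had an unadjusted p under 0.05, 11 passed in DESeq2, and 16 passed in edgeR without WT replicate 3. The last 2 adjustments (DESeq2, and without WT replicate 3) were chosen after seeing the data. Both scalings take most listed genes to be unchanged, and most are lower. For the lost calls of single genes the cause was not tested.

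Same-numbered WT and KO libraries did not deviate together across the listed genes (correlations of 0.0141, 0.0762 and -0.0422), and the main test did not pair them. Correlations over genes selected for a genotype difference cannot show whether the numbers mark a pairing. With a replicate block the log2 fold changes were -1.77, -1.04 and -1.31 for Pnpla2, Mgll and Gk. In that fit 382 listed genes, 17 of the 19 and all 3 genes passed. The block SEs were larger, at 0.45, 0.45 and 0.44 against 0.34, 0.39 and 0.36 in the main fit. Even so, the unadjusted p of Pnpla2 was smaller (edgeR, 7.56e-05 against 0.000327). The p-values of the 2 fits are thus not comparable, and the block calls do not show that the result withstands pairing. The differences in log2 ratio kept their direction with a library left out, from 0.59 to 0.93 for Mgll to Pnpla2, 0.25 to 0.75 for Gk to Pnpla2 (lowest without WT replicate 2, highest without WT replicate 1) and -0.52 to -0.11 for Gk to Mgll (-0.52 without WT replicate 2, -0.11 without WT replicate 3). None could pass at these sample sizes.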

Other observations

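The deposited annotation of each gene names its KEGG pathways, and these give 2 further groups that hold 1 or more of Pnpla2, Mgll and Gk. Both, and the genes named from them, were chosen after the values were seen. In glycerolipid metabolism, 8 listed genes are annotated, among them Pnpla2, Mgll and Gk. 7 of the 8 were called lower by edgeR and 1, Tkfc, higher; nearly every row of this selected table was called (59.9% of the listed genes lower, 39.8% higher). Tkfc encodes triokinase, which phosphorylates dihydroxyacetone and glyceraldehyde, products of fructose and glycerol handling. It stood at 67.6, 105 and 192 FPKM in WT replicates 1, 2 and 3 and at 293, 321 and 251 in KO replicates 1, 2 and 3, a log2 change of 1.25 with an SE of 0.41 (edgeR, adjusted p = 0.0159). The call was lost without WT replicate 1 (0.96, edgeR adjusted p = 0.0530), WT replicate 2 (1.15, edgeR adjusted p = 0.0523) or KO replicate 2 (1.17, edgeR adjusted p = 0.0590). Here too WT replicate 3 was the WT library nearest to KO. The other lower genes were Dgkh, a diglyceride kinase gene at low levels, with 0.13 to 0.22 FPKM in WT and 0.03 to 0.06 in KO, Aldh3a2, Gpat4 and Lpin2.

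In the PPAR signaling pathway, 16 listed genes are annotated, Gk among them and Pnpla2 and Mgll not. 15 of the 16 were called lower and 1, the bile acid synthesis gene Cyp7a1, higher, beside the same 59.9% of all listed genes called lower. The median log2 fold change of the 15 other than Gk, Cyp7a1 included, was -1.56, and Gk stood at -1.40. Over all listed genes the median was -1.10, but it pools lower and higher genes. By size of fall, Gk ranked 120 among the 233 listed genes lower in KO. Not all genes of this pathway had their lowest WT value in WT replicate 3. The fatty acid uptake gene Cd36 stood at 81.8, 41.9 and 74.9 FPKM in WT replicates 1, 2 and 3, and the desaturase gene Fads2 at 372, 298 and 534.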
